A study of Gasterosteus aculeatus with 34 samples.

Results

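Gene expression in the forebrain of male threespine sticklebacks (Gasterosteus aculeatus) was compared between males whose final trial was a courtship opportunity and males whose final trial was an empty control, in the telencephalon and in the diencephalon of the same fish. Males were taken by the final-trial treatment in their labels, which gave 4 courtship males (numbers 299, 319, 320 and 329) and 4 control males (303, 304, 307 and 308). Each male gave a library per region, so that 16 of the 34 libraries belong to the comparison. In the courtship opportunity a gravid female was shown to the male in a flask, and in the control both flasks were empty. The RNA of both regions was preserved 60 minutes after the final trial.

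All males, courtship and control alike, were of the white ecotype, were raised in the laboratory from wild-caught parents and had passed through 8 trials at 1 trial per day. Each had met every treatment in both rounds of trials. The control males had therefore also been shown gravid females and rivals on earlier days, and the groups differ by the last encounter, not by whether a female was ever seen. The sources used here give neither the ages of the males nor what they did during the trials. The 9 other males (after a territorial challenge, or after both stimuli at once) entered the fits to share the estimate of the spread. They thereby also entered the filter on low counts and the scaling of the libraries. They served as well to define gene sets outside the comparison.

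The telencephalon of fish holds pallial and subpallial areas that take part in learning, reward and social approach. The diencephalon holds the thalamus and the hypothalamus, whose neuropeptide neurons act on reproduction, feeding and stress. Both are counted among the regions of the social behaviour network of vertebrates, and transcripts of immediate early genes, which neurons induce after activity, are commonly measured about an hour after an encounter. The files name genes by identifier alone. None of the 22295 identifiers (0) matched the reference table, so the 5 lists of 86 genes chosen for this question (immediate early genes, neuropeptides and their receptors, steroid signalling, dopamine and serotonin, and markers of other cell types) could not be looked up, and the region labels could not be checked against named markers. Genes are given below by identifier, with no role.

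Telencephalon libraries held 27011480 to 36656215 counts in courtship males and 22802875 to 30799674 in control males. Diencephalon libraries held 19783129 to 23064582 counts in courtship males and 17676221 to 25149326 in control males. The regional identity of the libraries was examined with genes that differed between the regions by at least 4-fold on average over the 9 other males, and in the same direction in each of them, which gave 134 telencephalon-enriched and 236 diencephalon-enriched genes. In the telencephalon, the diencephalon-enriched genes had a mean log2(CPM + 0.5) of 1.29, 0.898, 0.867 and 1.23 in courtship males, against 0.808, 3.24, 0.778 and 1.23 in control males, where CPM is the library-size scaled count of edgeR. The value of 3.24 belongs to control male 304. Its diencephalon library in turn had the highest mean of the telencephalon-enriched genes, 3.39, with 2.35, 2.42, 2.31 and 2.30 in courtship males and 2.40, 2.48 and 2.36 in the other controls. Of the 236 diencephalon-enriched genes, 225 (95.3%) had their highest telencephalon value among the 8 males in male 304, as had 120 of the 134 telencephalon-enriched genes (89.6%) in the diencephalon. Summed over the set, diencephalon-enriched genes reached 1363 to 2470 CPM in the telencephalon of courtship males and 6346 CPM in that of control male 304, the other controls lying at 1018 to 1987 CPM. Both libraries of male 304 thus held high levels of genes of the other region. They also held the lowest sums for their own region. Telencephalon-enriched genes summed to 6916 CPM in its telencephalon, against 11497 to 13374 CPM in courtship males and 11790 to 14398 CPM in the other controls. Diencephalon-enriched genes summed to 9114 CPM in its diencephalon, against 10882 to 12034 CPM and 10656 to 11724 CPM. Counts of region-enriched genes in the tests are given with and without this male, and so are the fold changes of several genes. In dissected tissue a lower level of a transcript may come from fewer cells of a type or from less RNA per cell, and the 2 cannot be told apart.

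**Figure D1:**
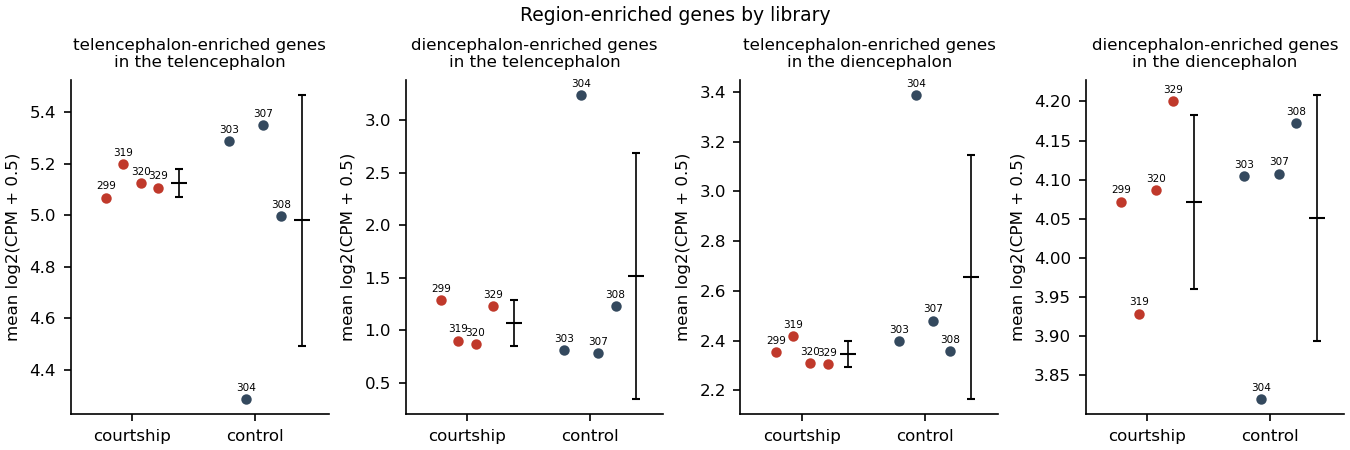
Mean log2(CPM + 0.5) of telencephalon-enriched and of diencephalon-enriched genes in each library (points, labelled with the male's number), with courtship males in red and control males in blue; black bars give the mean and SD of 4 males. Control male 304 is at 3.24 for diencephalon-enriched genes in the telencephalon and at 3.39 for telencephalon-enriched genes in the diencephalon, above the other 7 males in both cases; each panel has its own vertical range.

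None of 8 measures of the libraries separated courtship from control males in either region. They covered read shares, the share of the 100 most abundant genes, the share of gene models on chrY, and 3 gene sets. Over these 16 comparisons the lowest Benjamini-Hochberg adjusted p of the exact permutation test (two-sided) was 0.514, and 4 males against 4 cannot give a raw p below 0.0286. A single measure therefore could not pass after adjustment, even with groups fully apart. Reads that did not align uniquely made 17.2, 21.3, 17.6 and 11.4% of the telencephalon libraries of courtship males, against 21.5, 20.0, 19.8 and 19.6% in control males. The lowest share is that of courtship male 329, and the groups overlap. In the diencephalon the shares were 4.24, 4.57, 4.09 and 3.99% in courtship males and 4.07, 3.90, 3.88 and 3.98% in control males. Courtship male 329 lay within the controls and the other 3 courtship males above them.

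The telencephalon was compared first. The edgeR quasi-likelihood test called 0 of 18277 genes after Benjamini-Hochberg adjustment (0%). An unadjusted p under 0.05 was found for 459 genes (2.51%), of which 175 were higher (0.957%) and 284 lower (1.55%) after courtship. If no gene differed, a share of about 0.05 would be under this threshold, and the share found was lower. The same holds for the shares given below for the diencephalon, the sums and the difference between regions. Groups that did not overlap were found for 164 genes with all courtship males above all controls (0.897%) and for 184 with all below (1.01%). Each share is below 1 in 70, as 1 of the 70 splits of 8 libraries puts the courtship males wholly on a given side. A change of over 2-fold in either direction was fitted for 431 genes (2.36%), 268 of which averaged under 1 CPM. Of the 16437 genes that averaged 1 CPM or more, 71.3% had a 95% interval of the fold change that lay within 1.5-fold of no change. Among genes under 1 CPM, 0% of the intervals were that narrow.

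ENSGACG00000000032 had the lowest p among genes lower after courtship. It was at 0.647, 1.14, 0.782 and 0.693 CPM in courtship males, against 1.52, 1.86, 1.69 and 2.52 CPM in control males. All courtship males lay below all controls, and also below the 9 other males, which ranged from 1.34 to 2.44 CPM. The log2 fold change was -1.22 (SE 0.27, edgeR unadjusted p = 0.000325, adjusted p = 1). In the diencephalon the same gene was at 1.58, 1.25, 0.661 and 1.27 CPM after courtship and at 1.30, 2.07, 2.40 and 1.30 CPM in controls. The groups overlap there, and the log2 fold change was -0.57 (SE 0.33).

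ENSGACG00000007902 was the other gene named among those lower. It was at 0.457, 0.349, 0.744 and 0.401 CPM in the telencephalon of courtship males, against 0.738, 11.9, 0.388 and 7.66 CPM in controls. The difference rests on control males 304 and 308, while control males 303 and 307 lay at the level of the courtship males. The log2 fold change was -3.42 (SE 0.86, edgeR adjusted p = 1), and -0.18 without males 304 and 308. In the diencephalon the gene was at 19.2 to 23.1 CPM after courtship and at 17.9 to 23.2 CPM in controls, and it belongs to the diencephalon-enriched genes.

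Among genes higher in the telencephalon after courtship, ENSGACG00000008437 had the lowest p. Its values were 5.21, 5.59, 4.73 and 5.43 CPM in courtship males, against 3.41, 4.12, 3.53 and 3.27 CPM in control males. The groups do not overlap, and the 9 other males spanned the gap between them with a median of 4.28 CPM (3.64 to 5.07). The log2 fold change was 0.55 (SE 0.16, edgeR adjusted p = 1), and it lay between 0.51 and 0.63 with any 1 of the 8 males left out. In the diencephalon the gene averaged 6.70 ± 0.919 CPM after courtship and 6.56 ± 0.590 CPM in controls (SD, n = 4 each). ENSGACG00000007151 was at 24.6, 26.2, 34.9 and 32.6 CPM in the telencephalon of courtship males and at 23.0, 21.2, 23.3 and 24.8 CPM in that of controls. Courtship males 320 and 329 were high, and male 299 lay just below control male 308 (log2 fold change 0.36, SE 0.10).

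The diencephalon gave 0 calls of 18399 genes in edgeR (0%). An unadjusted p under 0.05 was reached by 430 genes (2.34%). Of these, 212 were higher (1.15%) and 218 lower (1.18%) after courtship. Courtship males lay above all controls for 153 genes (0.832%) and below all controls for 151 (0.821%), each again below 1 in 70. A fitted change of over 2-fold was rarer than in the telencephalon, at 162 genes (0.88%). Intervals were also narrower, since 80.4% of the 17014 genes with at least 1 CPM had a 95% interval within 1.5-fold of no change, although the diencephalon libraries held fewer counts.

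ENSGACG00000009129 was the gene with the lowest p among those higher in the diencephalon. Courtship males were at 4.84, 4.52, 4.72 and 4.63 CPM, against 3.02, 3.24, 3.21 and 2.66 CPM in control males. The groups were well apart, with an SD of 0.137 CPM within the courtship males and 0.266 CPM within the controls. The log2 fold change was 0.63 (SE 0.15, edgeR unadjusted p = 0.000579, adjusted p = 1). In the telencephalon the gene was at 1.98, 2.88, 3.57 and 3.46 CPM after courtship and at 2.26, 4.84, 2.68 and 3.06 CPM in controls, where the groups overlap and the log2 fold change was -0.11 (SE 0.29). ENSGACG00000003515 was at 14.6, 12.6, 14.1 and 15.2 CPM in the diencephalon of courtship males and at 11.3, 10.5, 11.4 and 10.9 CPM in that of controls. All courtship males were above all controls, by a log2 fold change of 0.36 (SE 0.09), while the telencephalon means of 11.5 ± 0.681 and 11.1 ± 0.466 CPM (SD, n = 4 each) differed by less than the spread.

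ENSGACG00000005703 was lower in the diencephalon after courtship by the lowest p. It was at 32.6, 35.4, 27.2 and 29.5 CPM in courtship males, against 42.5, 39.9, 38.1 and 38.7 CPM in controls. The groups do not overlap, and the 9 other males spanned 35.1 to 45.2 CPM, the range of the controls and the highest courtship male. The log2 fold change was -0.35 (SE 0.08, edgeR unadjusted p = 0.00066, adjusted p = 1). ENSGACG00000006028 was at 60.2, 57.4, 57.5 and 53.3 CPM in courtship males and at 62.8, 98.9, 71.4 and 66.3 CPM in controls. The groups do not overlap, and control male 304 is the highest. This gene was more abundant in the telencephalon, where courtship males averaged 199 CPM and controls 190 CPM, and male 304 was the lowest at 132 CPM. The diencephalon log2 fold change of -0.39 (SE 0.11) became -0.23 without male 304.

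**Figure D2:**
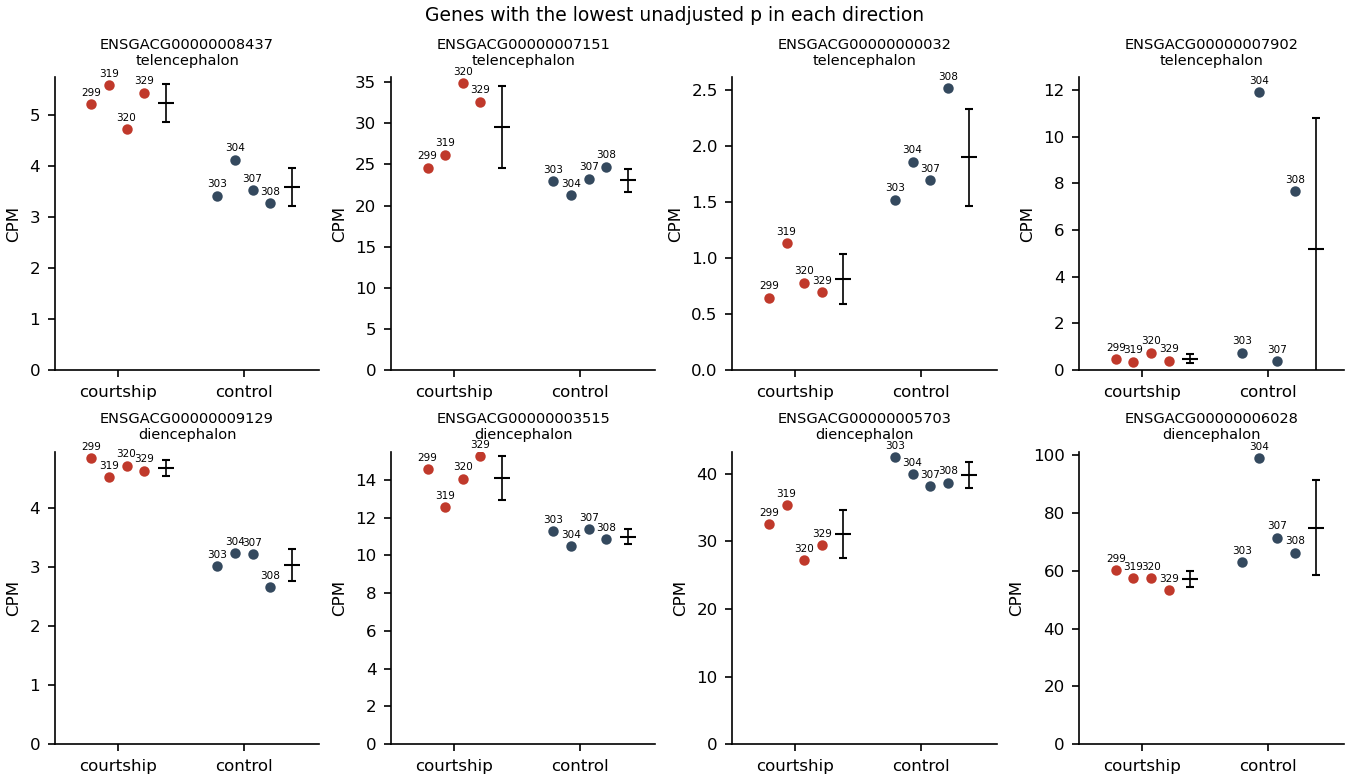
CPM of the genes with the lowest unadjusted p in each direction, per male (points, labelled with the male's number; courtship red, control blue), with the mean and SD of 4 males in black; the upper row shows the telencephalon and the lower row the diencephalon, and each panel has its own vertical range from 0. Groups do not overlap for 6 of these 8 genes; they overlap for ENSGACG00000007151 and for ENSGACG00000007902, whose control mean rests on males 304 and 308.

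Sets of genes defined by region moved with male 304, though some shares stayed above those of all genes without that male. In the telencephalon, 27 of the 184 diencephalon-enriched genes that passed the filter on low counts were lower after courtship at an unadjusted p under 0.05 (14.7%, against 1.55% of all genes tested) and 0 were higher. Their median log2 fold change was -0.83, against -0.0038 over all genes tested. Without male 304, the count was 2 of 183 (1.09%, against 1.14% of all genes) and the median 0.24. In the diencephalon, 35 of 126 telencephalon-enriched genes were lower (27.8%, against 1.18% of all genes), with a median log2 fold change of -0.40, and 6 of 126 (4.76%, against 1.27% of all genes) with a median of -0.08 without male 304. Telencephalon-enriched genes in the telencephalon had a median log2 fold change of 0.09, and -0.10 without male 304. Of 236 diencephalon-enriched genes in the diencephalon, 9 were higher (3.81%, against 1.15% of all genes) and 4 lower (1.69%, against 1.18%). Without male 304, 2 were higher (0.847%, against 1.43%) and 11 lower (4.66%, against 1.27%). Without males 304 and 308, 8 of 198 diencephalon-enriched genes were higher in the telencephalon (4.04%, against 2.05%), with a median of 0.49. There, 7 of 134 telencephalon-enriched genes were lower (5.22%, against 1.70%). Earlier results of these data had singled out ENSGACG00000018030 and ENSGACG00000005648, so they are no independent examples. ENSGACG00000018030, a diencephalon-enriched gene, was at 0.761, 0.582, 1.04 and 1.79 CPM in the telencephalon of courtship males, against 0.738, 160.5, 1.17 and 4.56 CPM in controls. ENSGACG00000005648, which is telencephalon-enriched, was at 0.479, 2.80, 0.573 and 0.510 CPM in the diencephalon of courtship males, against 1.14, 38.7, 3.68 and 0.434 CPM in controls. In both genes the control mean rests on male 304, whose telencephalon fell short of the other males for ENSGACG00000005648, at 107 CPM against 216, 240, 251 and 227 CPM after courtship and 241, 256 and 209 CPM in the other controls. With any 1 male left out, the telencephalon log2 fold change of ENSGACG00000018030 ran from -5.75 to -1.06. That of ENSGACG00000005648 in the diencephalon ran from -4.39 to -0.70. The part of cells or RNA of the other region in these results was not tested.

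A further set of 8 genes was taken from the 9 other males as those that varied with ENSGACG00000009153. Earlier results of these data had singled out this gene. It was at 47.1, 0.291, 0 and 2.92 CPM in the telencephalon of courtship males, against 8.81, 712, 1.02 and 1355 CPM in controls. Control males 304 and 308 were high and control males 303 and 307 lay within the range of the courtship males. In the diencephalon, where the gene was abundant in all 8 males, it was at 1010, 1120, 716 and 508 CPM after courtship and at 531, 799, 1827 and 2894 CPM in controls. None of the 8 genes passed an unadjusted p of 0.05 in either region (0 of 8, beside 2.51% of all telencephalon genes and 2.34% of all diencephalon genes tested). The telencephalon log2 fold change of ENSGACG00000009153 was -5.39 (SE 3.14), and 1.41 without males 304 and 308. ENSGACG00000002475 of the same set differed from the others in being abundant in the telencephalon of every male, at 724, 785, 236 and 471 CPM after courtship and 217, 343, 662 and 307 CPM in controls.

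Adding up both libraries of a male gives each male 1 value and tests the total of both regions. The library with more counts of a gene weighs more, so a low p does not require a change in both regions. In edgeR, 0 of 19136 genes passed (0%), and 348 (1.82%) had an unadjusted p under 0.05, 176 higher (0.92%) and 172 lower (0.899%) after courtship. A fitted change of over 2-fold was found for 220 genes (1.15%). ENSGACG00000000032 again had the lowest p among genes lower (log2 fold change -0.92, SE 0.22), and ENSGACG00000012885 the next. ENSGACG00000012885 was at 30.0, 29.4, 32.1 and 26.2 CPM in the diencephalon of courtship males, against 52.8, 25.2, 43.6 and 38.2 CPM in controls, with control male 304 below the courtship males. In the telencephalon it was at 5.56, 5.59, 2.53 and 3.87 CPM after courtship and at 4.98, 17.4, 2.47 and 5.14 CPM in controls, with male 304 the highest. The summed log2 fold change was -0.51 (SE 0.12), and -0.53 without male 304. Genes higher were led by ENSGACG00000007151 (0.34, SE 0.09) and ENSGACG00000005809 (0.35, SE 0.10). ENSGACG00000005809 was at 32.6, 36.1, 37.7 and 32.4 CPM in the telencephalon of courtship males, above the 28.1, 19.1, 30.5 and 26.4 CPM of controls, and at 14.5, 16.1, 14.5 and 11.6 CPM in the diencephalon, against 12.1, 14.5, 12.5 and 12.8 CPM in controls.

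Whether the response differed between the regions was tested as the difference of both log2 fold changes, telencephalon minus diencephalon. The main fit treated all libraries as independent and did not pair the regions of a male. In edgeR, 0 of 18923 genes passed (0%), and 423 (2.24%) had an unadjusted p under 0.05, 154 positive (0.814%) and 269 negative (1.42%). The fitted difference was over 2-fold for 814 genes (4.3%). With the male as a replicate block, which the design allows since both regions came from the same fish, edgeR again gave 0 calls. An unadjusted p under 0.05 was then reached by 696 of 18923 genes, 359 positive and 337 negative. The excess of negative differences in the main fit was thus absent in this paired fit of all males. Most genes on the list of the main fit were outside both region sets, with 125 positive and 195 negative of 18553 such genes (0.674% and 1.05%). Region-enriched genes had higher shares. Of 134 telencephalon-enriched genes 29 were positive (21.6%) and of 236 diencephalon-enriched genes 74 were negative (31.4%). Without male 304, 1 of 134 telencephalon-enriched genes was positive (0.746%, against 0.63% of all genes) and 4 of 236 diencephalon-enriched genes were negative (1.69%, against 0.877%). Another 5 of the 236 were then positive (2.12%), and the median difference of that set was 0.16, against -1.15 with all males.

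ENSGACG00000016030 was 1 of the genes named for this difference, and it was expressed in both regions of all 8 males. In the telencephalon it was at 16.4, 11.5, 13.3 and 16.6 CPM after courtship, against 7.89, 7.20, 8.68 and 11.8 CPM in controls. In the diencephalon it was at 5.08, 7.49, 5.73 and 5.10 CPM after courtship, against 9.04, 7.13, 8.75 and 6.84 CPM in controls. Courtship values were thus mostly high in the telencephalon and mostly low in the diencephalon, with courtship male 319 inside the range of the controls in each region. The difference of log2 fold changes was 1.14 (SE 0.31, edgeR unadjusted p = 0.000922, adjusted p = 1), and between 1.004 and 1.38 with any 1 male left out. It was 1.155 with the male as a replicate block.

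The other genes named for the difference rested on few control libraries. ENSGACG00000016453 was at 0, 0, 0.0372 and 0.0365 CPM in the telencephalon of courtship males, and at 0, 4.05, 0.0353 and 0.204 CPM in controls, so that male 304 alone was high. In the diencephalon it was at 3.17 to 5.18 CPM after courtship and at 2.86 to 4.03 CPM in controls. Its difference of log2 fold changes was -5.78, and -2.16 without male 304. ENSGACG00000016370 had 0 counts in the diencephalon of all 4 courtship males and was at 0, 1.21, 0.155 and 0 CPM in controls, again with male 304 the highest. A count of 0 allows up to 0.126 to 0.144 CPM in these courtship libraries (3 counts). In the telencephalon that gene was at 4.05 to 5.92 CPM after courtship and at 2.79 to 7.06 CPM in controls. Its difference of log2 fold changes was 6.42, and 3.77 without male 304. ENSGACG00000007902, described above, also belongs to these genes.

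DESeq2, run beside edgeR, called 1 gene in the telencephalon, 0 in the diencephalon, 0 in the sums and 1 in the difference between regions. The telencephalon call was maker-chrY-augustus-gene-39.88, a gene model on chrY (DESeq2 adjusted p = 0.00331). It had 0 counts in the telencephalon of all 4 courtship males and of control males 304, 307 and 308, and 132 counts (6.09 CPM) in control male 303. In the diencephalon of male 303 it stood at 6.29 CPM, so the gene model was high in both libraries of this male. It was also high in both libraries of 4 of the 9 other males, where telencephalon libraries held 155 to 187 counts of it and diencephalon libraries 113 to 223. The call in the difference was ENSGACG00000015274 (DESeq2 adjusted p = 1.22e-24), with 86 counts (3.08 CPM) in the telencephalon of male 304 and 0 counts in that of the other 7 males, while the diencephalon held 65 to 120 counts in all 8. Each call thus rests on 1 control library, and edgeR gave an adjusted p of 1 for both.

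The fold changes of the same males were then set side by side between the regions. Over 17959 genes tested in both, the log2 fold changes correlated with a Pearson's r of 0.238 (Spearman's rho 0.163), and 54.9% of genes had the same sign. The correlation is across genes, which are not independent replicates, and both fold changes come from the same 8 males through separate libraries. It was 0.342 without male 304 and 0.341 without courtship male 329. An unadjusted p under 0.05 was reached by 444 of these genes in the telencephalon (2.47%) and by 419 in the diencephalon (2.33%). On both lists were 36 genes, which is 8.11% of the telencephalon list and 8.59% of the diencephalon list. Of the 36, 32 had the same direction in both regions, 13 being higher and 19 lower after courtship. The number of such genes lay between 18 and 48 with any 1 male left out.

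**Figure D3:**
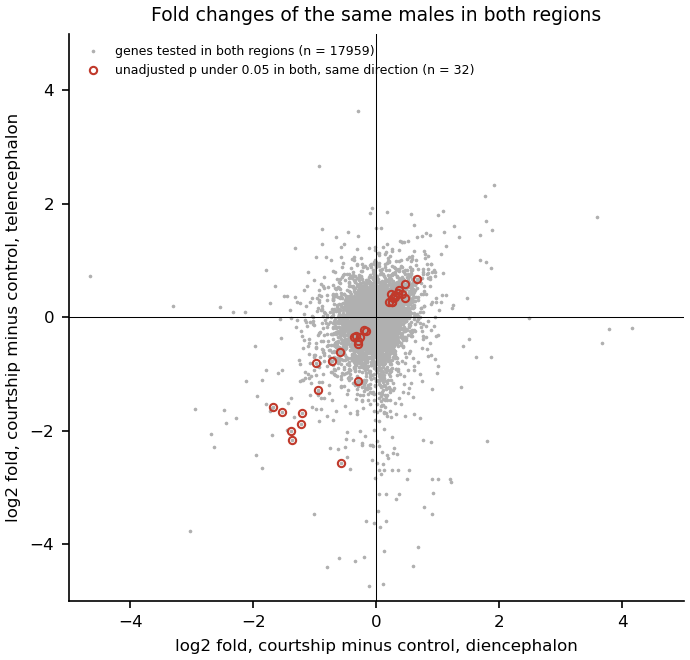
Log2 fold change, courtship minus control, in the telencephalon (vertical) against the diencephalon (horizontal) for 17959 genes (grey); red circles mark the 32 genes at an unadjusted p under 0.05 in both regions with the same direction, and 11 genes lie outside the axes. The cloud is only weakly tilted (Pearson's r 0.238), and genes with large telencephalon changes extend mainly downwards, near 0 on the diencephalon axis.

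Most differences of the 32 genes were small. In 18 of them the fitted change was under 1.5-fold in both regions, and in 6 it was over 2-fold in both. For 5 of the 32, courtship and control males did not overlap in the telencephalon or in the diencephalon. Of all 17959 genes tested in both regions, 339 were without overlap in the telencephalon and 296 in the diencephalon. Among them, 3 had courtship above control without overlap in both regions, 7 had it below in both, and 2 were in opposite directions. None of the 32 (0) was a gene model on chrY, beside 444 of the 18277 genes tested in the telencephalon. In the diencephalon, 440 of the 18399 genes tested were such models. Region-enriched were 2 of the 32. Outside the region sets were 30 of the 32, beside 17649 of all 17959 genes. Neither count was tested.

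ENSGACG00000012010 was named among the 32 and is 1 of the 5 without overlap in both regions. In the telencephalon it was at 1.22, 0.815, 1.34 and 1.97 CPM in courtship males, against 3.69, 5.98, 7.62 and 2.45 CPM in controls. In the diencephalon it was at 1.97, 2.55, 1.76 and 2.63 CPM after courtship, against 4.37, 7.37, 6.27 and 2.82 CPM in controls. No courtship male reached a control in either region, and control male 308 was the lowest control in both. The log2 fold change was -1.88 (SE 0.53) in the telencephalon and -1.22 (SE 0.41) in the diencephalon, with an edgeR adjusted p of 1 in each. In the 9 other males the gene ranged from 1.40 to 8.70 CPM in the telencephalon and from 1.78 to 8.47 CPM in the diencephalon, so males outside the comparison covered the levels of both groups. Over those 9 males, its telencephalon and diencephalon deviations from the means of their groups correlated with r = 0.906.

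ENSGACG00000006518 had smaller differences in the same direction. It was at 15.9, 18.4, 15.9 and 18.4 CPM in the telencephalon of courtship males, against 29.4, 25.0, 22.4 and 18.2 CPM in controls, and at 22.8, 18.7, 18.9 and 18.1 CPM in the diencephalon, against 26.4, 25.5, 23.0 and 21.6 CPM. Control male 308 lay within the courtship males in the telencephalon, and courtship male 299 within the controls in the diencephalon. The log2 fold changes were -0.46 (SE 0.15) and -0.29 (SE 0.10). ENSGACG00000007151, described above for the telencephalon, was at 32.9, 29.2, 37.9 and 33.95 CPM in the diencephalon of courtship males and at 24.2, 26.0, 26.7 and 31.8 CPM in that of controls (log2 fold change 0.31, SE 0.11). ENSGACG00000003270 was at 13.2, 12.8, 17.0 and 18.9 CPM in the telencephalon after courtship, against 13.5, 10.2, 10.8 and 12.2 CPM in controls, and at 12.1, 13.6, 16.0 and 14.5 CPM in the diencephalon, against 12.1, 12.6, 11.1 and 12.1 CPM. Courtship males 320 and 329 were the highest of the 8 in both regions.

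How far the fold changes went together depended on how a gene behaved in the 9 males outside the comparison. For each gene, the deviation of a male from its group was correlated over those males between telencephalon and diencephalon. A high r marks genes whose level followed the male in both regions among those 9 males. Courtship and control males did not enter this r. For 3218 genes with an r of at least 0.75, the log2 fold changes of the regions correlated with r = 0.676, and 64.3% had the same sign. For 3066 genes with an r under 0, the fold changes correlated with -0.12, and 48.3% had the same sign. Genes between these bounds gave 0.17, 0.20 and 0.23 in the 3 bins from 0 to 0.75. With any 1 male left out the correlation in the highest bin stayed between 0.602 and 0.775, and in the bin under 0 between -0.165 and -0.00721. The share with the same sign ran from 60.01 to 69.79% in the highest bin. In the bin under 0 it ran from 44.65 to 54.87%, the last without control male 304. Of the 32 genes, 9 (28.1%) had an r of at least 0.75, against 17.9% of all 17959 genes, and the median r was 0.606 against 0.455. Differences between the individual males of the groups and a response to the female cannot be told apart in genes that followed the male, since each male was measured after 1 treatment.

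**Figure D4:**
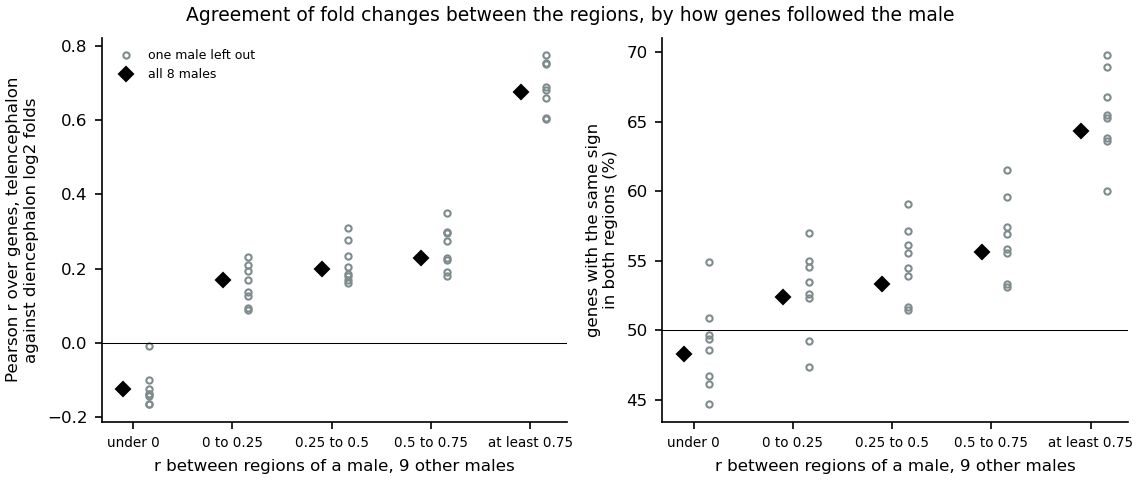
Pearson's r over genes between the log2 fold changes of both regions (left) and percent of genes with the same sign (right), for bins of genes by their correlation between the regions over the 9 other males; diamonds give all 8 males and open circles the values with 1 male left out. In the highest bin r is 0.676 and 64.3% have the same sign, and in the bin under 0 the values are -0.12 and 48.3%; the line on the right marks 50%.

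ENSGACG00000017870 is a gene of this kind that earlier results of these data had singled out. It was at 6.32, 4.04, 4.84 and 5.11 CPM in the telencephalon of courtship males, against 0.831, 5.88, 4.48 and 0.579 CPM in controls, and at 6.47, 7.36, 7.67 and 7.31 CPM in the diencephalon, against 1.14, 7.72, 6.20 and 0.815 CPM. All courtship males were high in both regions, and so were control males 304 and 307, while control males 303 and 308 were low in both. Males outside the comparison had a median of 0.411 CPM in the telencephalon (0.17 to 5.09). Their diencephalon median was 0.771 CPM (0.445 to 6.23). Both medians lay below control males 303 and 308, so low levels were common outside the comparison. ENSGACG00000010779, chosen in the same way, was at 10.4, 12.1, 12.3 and 12.4 CPM in the telencephalon of courtship males and at 23.2, 13.7, 11.7 and 13.6 CPM in that of controls. In the diencephalon it was at 9.69, 9.62, 11.4 and 11.4 CPM after courtship and at 25.3, 11.5, 9.84 and 11.2 CPM in controls. Among these males, control male 303 alone was high, in both regions. Males outside the comparison had a median of 24.7 CPM in the telencephalon (9.83 to 29.04). Their diencephalon median was 20.97 CPM (10.52 to 26.26). Male 303 thus lay within the range of those males, while the other males of the comparison lay well below both medians. The log2 fold changes were 0.79 (SE 0.84) and 0.85 (SE 0.66) for ENSGACG00000017870 and -0.39 (SE 0.25) and -0.45 (SE 0.27) for ENSGACG00000010779, telencephalon first. Without control male 303 those of ENSGACG00000010779 were -0.14 and -0.038. Those of ENSGACG00000017870 ran from 0.44 to 1.38 in the telencephalon and from 0.52 to 1.38 in the diencephalon with any 1 male left out.

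The males of a group were also compared as whole profiles, by the root mean square difference of log2(CPM + 0.5) over genes. In the telencephalon, pairs of courtship males differed by a median of 0.418 (6 pairs, 0.378 to 0.456), a courtship and a control male by 0.472 (16 pairs), and pairs of control males by 0.524 (6 pairs, 0.496 to 0.632). Without male 304 the pairs of controls had a median of 0.499 (3 pairs), so the courtship pairs lay closer together than the control pairs with or without it. In the diencephalon the medians were 0.358 within courtship, 0.362 between courtship and control and 0.411 within control. Every control library was nearest to a library of a courtship male, in each region, while another courtship male was nearest to 3 of 4 courtship males in the telencephalon and to all 4 in the diencephalon. The 28 pairs of a region share 8 libraries and were not tested.

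Leaving out single males left the calls at 0 in edgeR in each region and moved the number of genes that reached an unadjusted p under 0.05. In the telencephalon this number lay between 354 of 18486 genes tested (without courtship male 320) and 729 of 18472 (without control male 307). In the diencephalon it lay between 402 of 18519 (without courtship male 329) and 613 of 18516 (without control male 308). Without both males 304 and 308 the telencephalon gave 701 of 18698 (3.75%), with 383 higher and 318 lower. The diencephalon then gave 671 of 18692 (3.59%), with 344 higher and 327 lower. Each of these shares was below 0.05, the share under this threshold if no gene differed. The excess of lower over higher genes in the telencephalon, 284 against 175 (1.55% against 0.957%), was 211 against 182 without male 304 (1.14% against 0.987%). With all males it was 215 against 204 in limma voom and 375 against 221 in DESeq2.

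**Figure D5:**
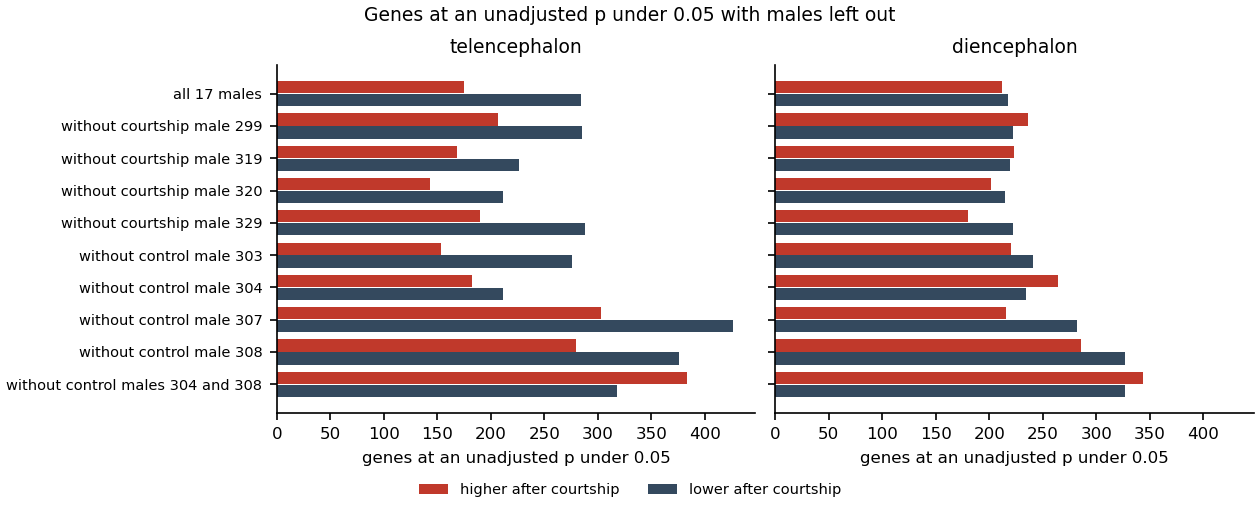
Genes at an unadjusted p under 0.05 (horizontal) that were higher (red) or lower (blue) after courtship, in the fit of all 17 males of a region and with males of the comparison left out. Adjusted p called 0 genes in edgeR in every one of these fits; the telencephalon gave 175 higher and 284 lower genes with all males, and 182 and 211 without control male 304.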

How the data were processed

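The authors deposited raw read counts per gene model, for which the submitters' processing notes name STAR and HTSeq. The genome build, like the annotation, the software versions and the handling of strand in counting, was not given in the sources used here. Libraries were stranded mRNA preparations, per the labels' protocols. Counts were used as deposited, without the 5 summary rows that name no gene. The members and gene lists were chosen with earlier results of these data known.

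Counts were tested with edgeR 4.0.16 (TMM factors, filterByExpr, robust quasi-likelihood F test) in R 4.3.3, and p was adjusted by Benjamini-Hochberg over all genes tested, with calls at 0.05. Each region was fitted with its 17 libraries in 4 groups, the sums of both libraries per male likewise, and the difference between regions with all 34 libraries. The SE of a log2 fold change is its size over the square root of F. CPM per male are on a scale common to all 34 libraries, and fold changes come from each region's own fit. DESeq2 1.42.0, limma 3.58.1 (voom), other size factors, no filter, fits of the 8 males alone and fits with males left out were alternatives. The pipeline was tested on simulated data.

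Region-enriched genes differed by at least 4-fold on the mean log2(CPM + 0.5) scale over the 9 males outside the comparison, in the same direction in each, and averaged at least 1 CPM in the richer region. The genes varying with ENSGACG00000009153 had an r of at least 0.9 with it and a range of at least 16-fold over the 9 telencephalon libraries. Since the files pair no names with identifiers, the genes named are the 2 with the lowest p in each direction per test with a mean of at least 1 CPM, those past adjusted p 0.05 in any tool, those with the lowest larger p of both regions among the shared genes, and 5 singled out by earlier results.

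Replicates are males, and both regions come from the same male, so the numbers of the males pair the libraries. The main fit of the difference between regions did not use this pairing, while the fit with the male as a replicate block did. Over genes, both libraries of a male deviated from their group means with an r between them from 0.0132 (male 304) to 0.545 over 17 males, and 15 of 17 matched their own male best. Intervals of fold changes include the spread between males. The limit of 3 counts covers counting error only, as these counts carry no molecular identifiers. Values of chrY models are uncertain where a similar copy on another chromosome shares their reads.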

Additional observations from a re-analysis of the deposited data

Results flagged for a closer look

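Values far from the other 3 libraries of their group were looked for in 121 sets of 4 values, and 13 were found, 6 of them in control male 304. Chance alone gives about 1 in 20, and several of the genes searched had been chosen for such values, so the number found cannot be set against chance.

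In the libraries of control male 304, telencephalon-enriched genes had a mean log2(CPM + 0.5) of 3.388 in the diencephalon, the other controls lying at 2.357 to 2.48. ENSGACG00000016370 was at 1.209 CPM there (others 0 to 0.155 CPM) and ENSGACG00000005648 at 38.67 CPM (0.434 to 3.68 CPM). In its telencephalon, ENSGACG00000016453 was at 4.049 CPM (0 to 0.204 CPM), ENSGACG00000018030 at 160.5 CPM (0.738 to 4.56 CPM) and ENSGACG00000015274 at 3.082 CPM (0 in the others).

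In control male 303, ENSGACG00000010779 was at 23.16 CPM in the telencephalon (11.7 to 13.7 CPM in the other controls) and at 25.31 CPM in the diencephalon (9.84 to 11.5 CPM). Both values lay within the ranges of the males outside the comparison, 9.83 to 29.04 CPM in the telencephalon and 10.52 to 26.26 CPM in the diencephalon. The gene model maker-chrY-augustus-gene-39.88 was at 6.091 CPM in the telencephalon of male 303 (0 in the other controls) and at 6.29 CPM in its diencephalon (0.039 to 0.0774 CPM).

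Among courtship males, ENSGACG00000009153 was at 47.07 CPM in the telencephalon of male 299, against at most 2.92 CPM in the others. ENSGACG00000010779 was lowest in the telencephalon of the same male, at 10.39 CPM, with 12.1 to 12.4 CPM in the others. ENSGACG00000005648 was at 2.803 CPM in the diencephalon of male 319, the others lying at 0.479 to 0.573 CPM.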

How the results depend on the processing

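In edgeR and limma voom 0 genes passed for each of the 4 tests across genes under every alternative run, among them other size factors, no filter on low counts, the 8 males alone, and 1 male or control males 304 and 308 left out. DESeq2 called 1 gene in the telencephalon and 1 in the difference between regions. With the male as a replicate block 0 genes passed for the difference, and 696 in place of 423 had an unadjusted p under 0.05 (829 without male 304 as well, chosen after seeing the data). Of the 696, 359 were positive and 337 negative, and of the 829, 356 were positive and 473 negative. limma voom with the male as a random replicate block called 0 genes for the mean of both regions. With 1 male left out, genes at an unadjusted p under 0.05 numbered 354 to 729 in the telencephalon, 402 to 613 in the diencephalon, 281 to 490 in the sums and 287 to 550 in the difference. Without males 304 and 308 they numbered 587 in the sums (3.02%). All these counts were shares under 0.05 of the genes tested. The correlation of the fold changes between regions lay between 0.187 and 0.342 with 1 male left out, and was 0.270 with DESeq2 fold changes, 0.219 with limma voom, 0.197 over genes of at least 10 CPM and 0.278 without region-enriched genes, the last chosen after seeing the data. Of 503 gene values under an alternative, 496 did not turn to the opposite direction. Many of these genes were chosen by their p in the same data, and the alternatives reuse the same males. The count is therefore no independent support. Without males 304 and 308 the telencephalon log2 fold changes turned to 1.41 for ENSGACG00000009153, 0.14 for ENSGACG00000018030 and -0.068 for ENSGACG00000005648. With 1 male left out they ran from -0.0039 to 0.33 for ENSGACG00000005648 in the telencephalon and from -0.44 to 0.085 for ENSGACG00000018030 in the diencephalon. Library measures whose small differences changed sign with 1 male left out were the chrY share in the telencephalon (-0.0264 to 0.021 points), the share of the 100 most abundant genes (-0.0632 to 0.347 points in the telencephalon, -0.496 to 0.473 in the diencephalon), telencephalon-enriched genes in the telencephalon (-0.087 to 0.27) and diencephalon-enriched genes in the telencephalon (-0.69 to 0.13) and diencephalon (-0.056 to 0.069). Leaving out control male 304 changed the sign of each of these. The chrY share in the telencephalon also changed sign without courtship male 299 or control male 307. Diencephalon-enriched genes in the diencephalon also did so without courtship male 329. The cause of these changes was not tested. In every setting 0 measures passed the threshold. With 1 male left out this was fixed in advance, since the exact test cannot then give a raw p under 0.05. Precision was low for genes under 1 CPM, for which 2.77% of telencephalon and 17.8% of diencephalon 95% intervals lay within 2-fold of no change. The part of depth in this was not tested.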

Other observations

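Of 444 Y chromosome models tested in the telencephalon, 3 were higher and 6 lower after courtship at an unadjusted p under 0.05 (2.03%, against 2.51% of all genes tested), and in the diencephalon 4 of 440 were higher and 3 lower (1.59%, against 2.34%). These shares are near those of all genes. Counts on the models made 1.46, 1.49, 1.501 and 1.47% of the gene counts in the telencephalon of courtship males, against 1.46, 1.56, 1.497 and 1.41% in controls. In the diencephalon the shares were 1.39, 1.32, 1.32 and 1.36% after courtship and 1.36, 1.34, 1.25 and 1.22% in controls. The groups overlap in both regions.

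Low p-values were least frequent in the highest of 4 ranges of expression. Of 2101 genes that averaged 100 CPM or more in the telencephalon, 22 had an unadjusted p under 0.05 (1.05%) and 4 a fitted change of over 2-fold, and 94.2% had a 95% interval within 1.5-fold of no change. Of 1976 such genes in the diencephalon, 30 had an unadjusted p under 0.05 (1.52%) and 2 a change of over 2-fold, and 95.9% had an interval within 1.5-fold.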
